A study of Homo sapiens with 32 samples.

Results

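The 28 genes described here are a group of enzymes, transporters, adhesion proteins and vesicle proteins that fell late in ZR-75-1 xenografts under tamoxifen and varied between tumors before that. ZR-75-1 cells are an established human line of luminal breast cancer with estrogen receptor. The published list of changed features on these arrays, 253 genes in all, was divided by time course into 6 sets, and sets 3 and 4 hold 39 genes. The 28 are what remains of those 39 after genes with other leading roles (proliferation, insulin signalling, lipid desaturation, some hypoxia genes) were set aside. Of these, 17 are in set 3 and 12 in set 4, with 1 gene, MPP2, in both. The log ratios of all 5 days on these same arrays chose the members, so their fall at day 14 and their time course are given as a description. Counts of limma calls are set beside the share of all features, and nothing is read from them.

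Mice carried ZR-75-1 tumors under estradiol (E2), which all animals received, and the treated group was given tamoxifen too (2.5 mg in 60 days of release). RNA of each treated tumor was hybridized with that of 1 shared pool of E2-only tumors to 2-color cDNA arrays, in both dye orientations. Day 1 holds 4 tumors from 2 mice, day 2 holds 2 tumors from 2 mice, days 4 and 7 hold 4 tumors from 3 mice each, and day 14 holds 2 tumors from 2 mice, which makes 16 tumors from 12 mice. Tumors of one mouse grew on its opposite flanks, and all tumors come from 1 cell line. The pool was made of E2-only tumors of days 0 to 4 by the study's methods, so on days 7 and 14 tamoxifen and time cannot be told apart. All values below are log2 ratios of treated tumor over pool, averaged over the orientations, and errors are SD over tumors. The brightest member feature (spotted cDNA clone) stands for a gene. A positive value most likely means higher RNA in the treated tumor: the scanner files do not name the dyes, and the direction was taken from the value table of the study, and every sign turns if the file columns are numbered as the labels number the channels. In whole tumors, fewer cells of a type and less RNA per cell cannot be told apart.

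Estradiol acts through the estrogen receptor, a nuclear receptor that binds DNA and raises transcription of genes for growth, secretion and metabolism in luminal breast cells. Tamoxifen occupies the receptor's ligand pocket and, in breast cells, lowers much of that transcription. Several of the 28 (CA12, SIAH2, SLC39A6, RAB31 and TPD52) are known to be raised by estrogen in breast cancer cells, while LDHA, PLOD2, PPP1R3C and CA12 are also known to be raised when oxygen is low, through the hypoxia-inducible factors.

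RefSeq promoter windows (GRCh38.p14, 250 bases before to 50 after a start) were found for 22 of the 28 genes. The core that hypoxia-inducible factors bind, searched as ACGTG or GCGTG on both strands, was in the window of 15 of these 22 genes and of 14318 of all 27305 genes (52.4%). The full palindromic estrogen response element, 2 arms of opposite strand with any 3 bases between them, was in 0 of 22 and in 20 of 27305 genes (0.0732%), its single arm GGTCA in 12 of 22 and 42.6% of all genes, and the sterol response element TCACNCCAC in 1 of 22 (SLC1A4) and 1.39% of all genes. Every full element also holds the single arm. A match is a description of the letters, and these arrays measured no binding. The 250 bases before the start are shown for LDHA, PLOD2, PPP1R3C and CA12, the glycolysis, hypoxia and pH genes, because all 4 had the lowest value of their day in day 1 replicate 4 and in day 4 replicate 1. This was not particular to them, as CELSR1, MPP2, SCARB1, SEMA3B, SLC39A6 and TPD52 were lowest in both tumors as well. Day 1 replicate 4 was lowest in 18 of the 28 genes and 26.3% of all features. Day 4 replicate 1 was lowest in 12 genes and 17.5% of all features. At day 7 the lowest tumor was replicate 1 for LDHA and PPP1R3C and replicate 2 for PLOD2 and CA12. Capitals mark the hypoxia core on either strand. LDHA lies at chr11:18394313-18394562 on the plus strand, and the others are on the minus strand: PLOD2 at chr3:146161185-146161434, PPP1R3C at chr10:91633072-91633321 and CA12 at chr15:63381847-63382096.
LDHA: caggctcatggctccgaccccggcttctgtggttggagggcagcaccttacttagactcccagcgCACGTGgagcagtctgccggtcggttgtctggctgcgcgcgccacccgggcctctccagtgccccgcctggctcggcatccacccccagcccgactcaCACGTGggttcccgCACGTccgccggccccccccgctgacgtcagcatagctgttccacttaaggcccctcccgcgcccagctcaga
PLOD2: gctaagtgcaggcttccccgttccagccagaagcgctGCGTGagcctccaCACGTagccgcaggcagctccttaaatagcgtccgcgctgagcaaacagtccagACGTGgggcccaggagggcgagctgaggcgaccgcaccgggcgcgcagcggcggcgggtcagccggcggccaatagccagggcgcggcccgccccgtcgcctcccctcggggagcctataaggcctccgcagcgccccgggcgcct
PPP1R3C: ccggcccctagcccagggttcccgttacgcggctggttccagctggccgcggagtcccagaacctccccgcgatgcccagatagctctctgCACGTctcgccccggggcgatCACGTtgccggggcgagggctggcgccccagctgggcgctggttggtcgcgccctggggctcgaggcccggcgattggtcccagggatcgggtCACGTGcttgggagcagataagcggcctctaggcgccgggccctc
CA12: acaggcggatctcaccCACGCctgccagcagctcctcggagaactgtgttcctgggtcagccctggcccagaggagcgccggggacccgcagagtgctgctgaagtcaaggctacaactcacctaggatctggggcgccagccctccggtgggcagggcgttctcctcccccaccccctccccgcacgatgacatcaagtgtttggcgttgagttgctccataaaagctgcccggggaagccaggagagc
In the bases shown, LDHA holds 5 matches, PPP1R3C 4, PLOD2 3 and CA12 1. Where the core is part of CACGTG it is counted once on each strand. A second LDHA window (chr11:18396101-18396350), not shown, holds 1 match in its 250 bases before the start.

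The group as a whole was near the pool on days 1 and 4 and somewhat below it on days 2 and 7. The median of the 28 day means was -0.06 at day 1 and -0.05 at day 4, and -0.22 on both day 2 and day 7. The mean of 19 genes lay below 0 on day 1, of 24 on day 2, of 15 on day 4 and of 26 on day 7. At day 4, 24 of the 28 genes had tumors on both sides of the pool, while over all features 8.67% were above it and 9.25% below it in all 4 tumors. Most features were thus on both sides too. At day 2, 17 genes were below the pool in both tumors (27.4% of all features). At day 7, 10 genes were below it in all 4 (11.5%). The medians over all features on days 2 and 7 were 0.0076 and 0.0013. At day 14 the median was -0.81, all 28 means lay below 0, from -1.87 to -0.53, and every gene was below the pool in both tumors. The median over all 9912 features was 0.00092 at day 14. Of all features, 34.3% were below the pool in both tumors of that day.

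**Figure D1:**
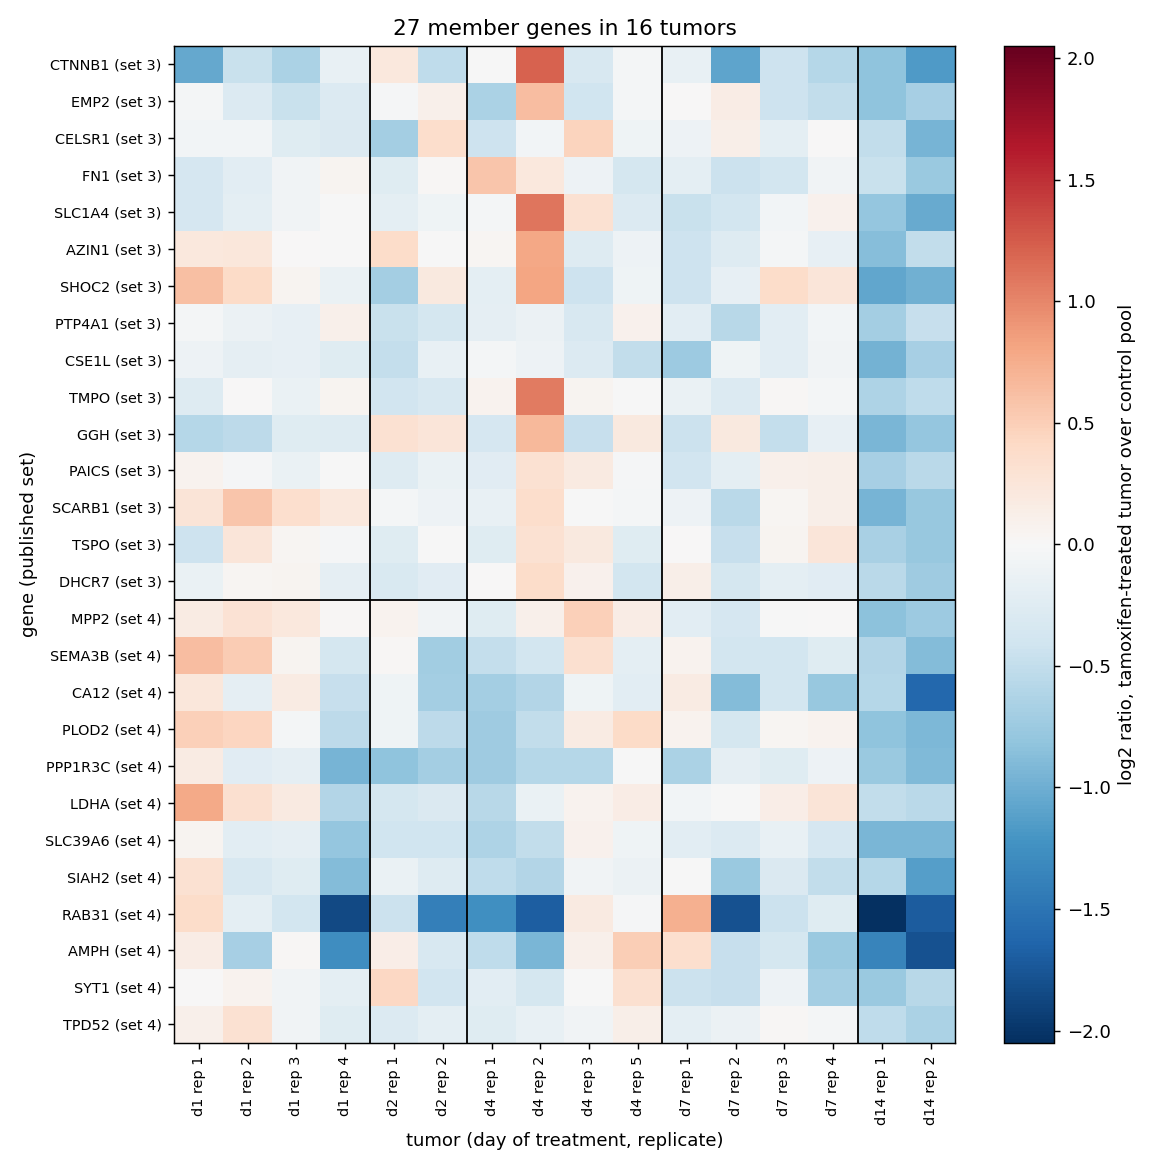
Log2 ratio of treated tumor over control pool for 27 of the 28 genes (rows, grouped by published set and then by function) in each of the 16 tumors (columns, grouped by day); blue is lower and red higher than the pool. The 2 columns of day 14 are blue in every row, and day 4 replicate 2 is red in most rows of set 3 and blue in most rows of set 4.

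By limma, with Benjamini-Hochberg adjustment over all features, 0 of the 28 genes were called at day 1, where 3.54% of all features were called lower and 3.00% higher. The count was also 0 at day 2 (0.646% lower and 0.141% higher over all features), at day 4 (0.615% and 0.313%) and at day 7 (0.484% and 0.222%). At an unadjusted p under 0.05, 3 genes were lower (CTNNB1, GGH, SLC39A6) and 1 higher (SCARB1) at day 1, 3 were lower at day 2, 4 lower and 1 higher at day 4, and 8 lower at day 7. Over all features the shares at that p were 11.0% lower and 10.5% higher at day 1 and 8.02% and 7.96% at day 4. The shares lower were 7.47% at day 2 and 5.79% at day 7. At day 14, 25 of the 28 were called lower and 0 higher, where 2.91% of all features were called lower and 3.29% higher. LDHA, SEMA3B and TMPO were not called. Since the members were chosen on this contrast, nothing is read from that count, and it rests on both tumors: without day 14 replicate 1 it was 1 gene (CA12), and without replicate 2 it was 0, in a fit where the single remaining tumor was assumed to vary like those of the other days. Both tumors were below the pool in all 28 genes, which the choice of members on these values favored. The orientations of day 14 replicate 1 did not always share that sign. Its forward array gave 0.28 in CELSR1 and 0.005 in TSPO, against -1.29 and -1.33 in the dye-swap array.

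Against the equal-weight mean of the 4 earlier days, in which the shared pool cancels, SCARB1 (difference -0.92) and MPP2 (-0.83) were called lower and 0 genes higher, where 0.141% of all features were called lower and 0.202% higher. This adjusted count of 2 was 0 without either day 14 tumor, and 4 without day 4 replicate 2, with AZIN1 and SLC1A4 added. At an unadjusted p under 0.05 the count was 26 lower and 0 higher, where 5.58% of all features were lower and 6.38% higher. The choice of members used the values of both sides of this contrast, so nothing is read from these counts. In 17 genes both day 14 tumors lay below all 14 earlier tumors, which held for 2.32% of features, and in 21 genes they lay below all 4 tumors of day 7, which held for 11.0%.

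The vesicle traffic genes held the largest values of the group. RAB31, a small GTPase of transport between trans-Golgi and endosomes (chr18:9708301-9862551), was 0.38, -0.20, -0.37 and -1.86 in the 4 tumors of day 1 and -0.45 and -1.41 in those of day 2. It was -1.25, -1.68, 0.18 and -0.03 in day 4 replicates 1, 2, 3 and 5, and 0.72, -1.79, -0.45 and -0.25 at day 7. At day 14 it was -2.04 and -1.70, a mean of -1.87 ± 0.24 (n = 2) or 3.66-fold lower than the pool. On days 1 and 7 the tumors thus ran from above the pool to about the level of day 14, and the day 14 values overlap with day 1 replicate 4 and day 7 replicate 2. Its pooled SD between tumors of one day, 0.902, lay at the 99.9th percentile of all features.

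AMPH encodes amphiphysin, which bends membrane at sites of endocytosis (chr7:38383704-38631373). Its values were 0.15, -0.68, 0.02 and -1.27 at day 1, 0.14 and -0.33 at day 2, -0.52, -0.94, 0.10 and 0.51 at day 4, and 0.34, -0.48, -0.35 and -0.75 at day 7. At day 14 it stood at -1.36 and -1.79, a mean of -1.57 ± 0.31 (n = 2) or 2.98-fold lower. Both day 14 tumors were below all earlier ones. Day 1 replicate 4 and day 4 replicate 2, which were low in RAB31, were also the lowest of their days in AMPH. Day 7 replicate 2, the lowest of its day in RAB31 (-1.79), was not the lowest in AMPH (-0.48, against -0.75 in replicate 4).

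The other vesicle genes moved less. SYT1, the calcium sensor synaptotagmin 1, had a day 14 mean of -0.67 ± 0.14 and already stood at -0.43 ± 0.24 (n = 4) at day 7, when all 4 tumors were below the pool. TPD52, tumor protein D52, was among the 3 genes with the smallest fall and had the smallest spread of the group. It was 0.10, 0.32, -0.08 and -0.25 at day 1, -0.29 and -0.20 at day 2, -0.25, -0.16, -0.08 and 0.12 at day 4, and -0.19, -0.11, 0.02 and -0.04 at day 7. Its day 14 values, -0.52 and -0.64, were below all 14 others, with a mean of -0.58 ± 0.08, 1.5-fold lower. Its pooled SD was 0.161, under the all-feature median of 0.220.

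**Figure D2:**
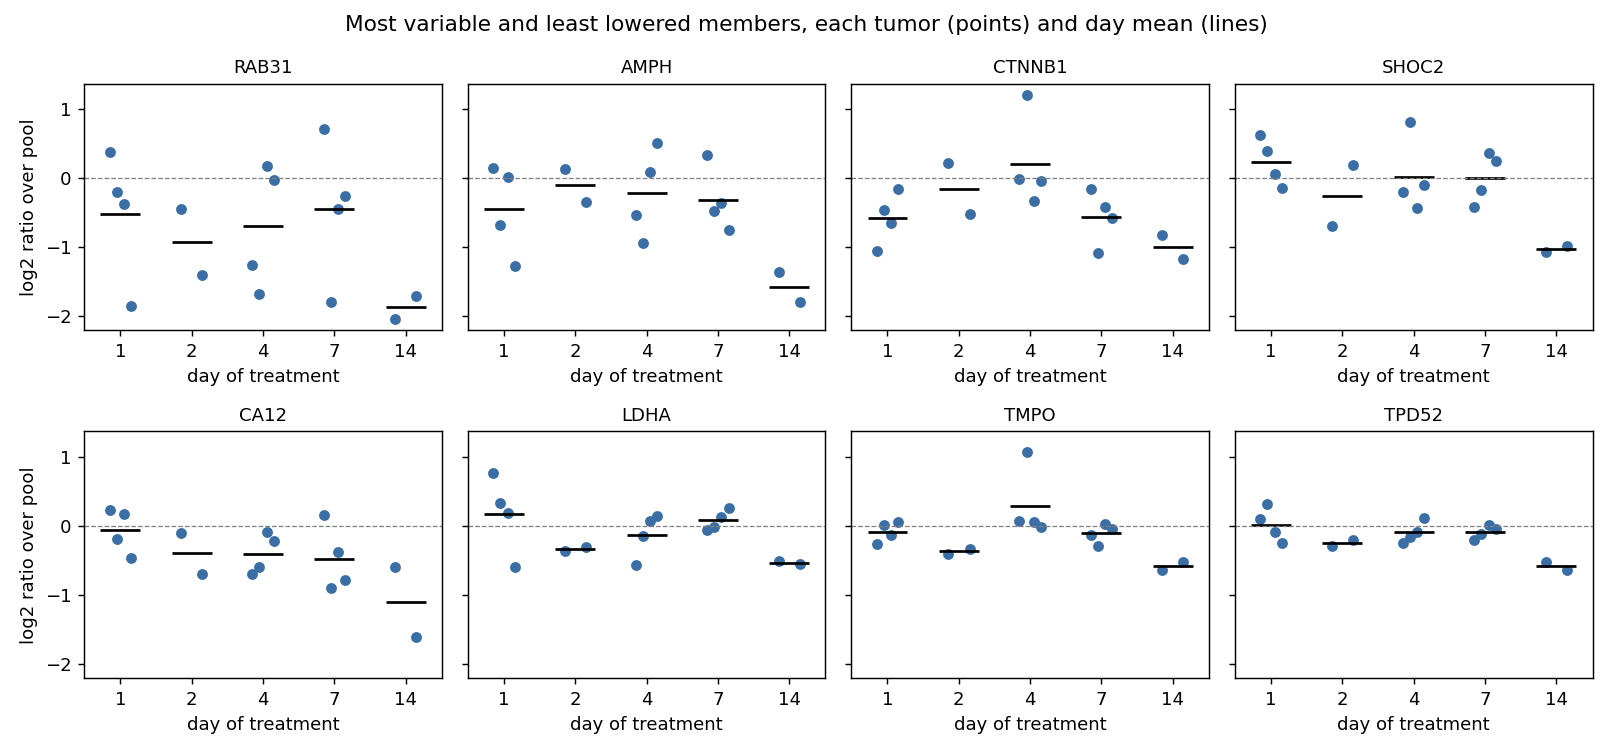
Log2 ratio over the pool (vertical axis) by day of treatment (horizontal axis, not to scale) for the 5 genes with the largest spread and the 3 with the smallest fall; points are tumors and lines are day means. RAB31 spans more than 2 units at days 1 and 7, while the points of TPD52 stay within 0.56 of each other on every day.

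Among the glycolysis, hypoxia and pH genes, CA12, a membrane carbonic anhydrase that sets pH outside the cell (chr15:63321378-63381846), was 0.24, -0.18, 0.17 and -0.47 at day 1 and -0.10 and -0.69 at day 2. It was -0.69, -0.60, -0.09 and -0.21 at day 4 and 0.16, -0.89, -0.38 and -0.78 at day 7. The day 14 tumors were apart from each other, at -0.59 and -1.61, and the mean of -1.10 ± 0.72 rests mainly on replicate 2. Day 14 replicate 1 lay within the range of days 2, 4 and 7.

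LDHA, lactate dehydrogenase A, which makes lactate from pyruvate (chr11:18394563-18408425), had the smallest fall of the 28. It was 0.77, 0.34, 0.18 and -0.59 at day 1, -0.37 and -0.30 at day 2, -0.57, -0.14, 0.07 and 0.15 at day 4, and -0.05, -0.01, 0.14 and 0.26 at day 7. At day 14 it was -0.51 and -0.55, a mean of -0.53 ± 0.03 or 1.45-fold lower. Those values lay below all 4 tumors of day 7 but not below day 1 replicate 4 and day 4 replicate 1. The value of day 4 replicate 2 comes from 1 orientation, as the other spot was left out.

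PLOD2, which hydroxylates lysine in collagen, ended at -0.87 ± 0.07, below all earlier tumors, after day means between -0.32 and 0.09. PPP1R3C, which brings protein phosphatase 1 to glycogen, had the lowest day 2 mean of this group (-0.76 ± 0.09) and was below the pool in all 4 tumors of days 4 and 7. It ended at -0.84 ± 0.11, so its day 14 mean differed from that of day 2 by less than the SD of either day. As a group these 4 genes had a median of 0.36 in day 1 replicate 1 and -0.57 in day 1 replicate 4, -0.71 and -0.55 in day 4 replicates 1 and 2, and -0.67 and -0.92 at day 14. The low tumors of days 1 and 4 were thus about as low in these genes as the first tumor of day 14. Of the other named genes of hypoxia and glycolysis, 1 of 5 was called lower at day 14 (SLC16A1, a lactate transporter, -1.07 ± 0.40) and 1 higher (STC1, the secreted hormone stanniocalcin 1, 1.17 ± 0.65). ADM (-0.87 ± 0.14), NDRG1 (-0.74 ± 0.33) and GPI (-0.49 ± 0.07) were not called.

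The ubiquitin ligase SIAH2 and the zinc importer SLC39A6 (LIV-1) were among the brightest members. SIAH2 was -0.29 ± 0.49 at day 1, -0.39 ± 0.32 at day 7 (n = 4 each) and -0.86 ± 0.39 at day 14, with the day 14 tumors apart at -0.59 and -1.13. SLC39A6 was -0.29 ± 0.36 at day 1, below the pool in all 4 tumors of day 7 (-0.25 ± 0.08), and -0.94 in both tumors of day 14. Their other spotted clones, which lie in set 5, also had negative means at day 14, from -0.71 to -0.62. Of the 21 other named estrogen-induced genes, 17 were called lower at day 14 and 0 higher, with a median of -1.09. That list was called lower in 13 genes at day 1, when 0 of the 28 were called. Among them GFRA1, a receptor subunit for GDNF-family ligands, stood at -2.52 ± 0.27 and TFF3, a secreted trefoil peptide, at -1.94 ± 0.04 at day 14. Over all features 2.91% were called lower at day 14 and 3.54% at day 1. Named genes are only those of the published list of features changed on these arrays. High shares are therefore built into every gene list of this report. The time course also chose the 28, so nothing is read from these counts or from the contrast at day 1.

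In the sterol and lipid handling genes the day means stayed between -0.27 and 0.35 through day 7. SCARB1, the HDL receptor that takes up cholesteryl esters, was above the pool in all 4 tumors of day 1 (0.26, 0.56, 0.34 and 0.22) and ended at -0.95 and -0.78, a mean of -0.87 ± 0.12. DHCR7, which catalyzes the last step of cholesterol synthesis, ended at -0.64 ± 0.12, and TSPO, a cholesterol-binding protein of the outer mitochondrial membrane, at -0.72 ± 0.09. In the clones that stand for these 3 genes, both day 14 tumors were below every earlier tumor. Of the other named cholesterol and fatty acid genes, 5 of 6 were called lower at day 14 and 5 of 6 at day 1, but not the same 5. SCD, a fatty acid desaturase, was 0.62 ± 0.46 at day 1 and -2.04 ± 0.62 at day 14, where it was called. FABP5, a fatty acid carrier, was called at day 1 (-0.75 ± 0.34) and not at day 14 (-0.64 ± 0.33). The second spotted clone of DHCR7, which lies in set 5, was lower than the first on each day, with -0.54 ± 0.33 at day 1 and -0.98 ± 0.56 at day 14. Its day 14 tumors, at -0.58 and -1.38, were not both below the earlier ones, as day 1 replicate 4 stood at -1.04.

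Among the purine and folate genes, GGH, which trims glutamate from folates, was -0.87 ± 0.10 at day 14, and PAICS, of purine synthesis, was -0.62 ± 0.09. In the clones that stand for these genes, both day 14 tumors were below all earlier ones. GGH was low in all 4 tumors of day 1 (-0.41 ± 0.17) and above the pool in both of day 2 (0.28 ± 0.05), with 1 orientation in day 2 replicate 2. A second GGH clone from set 1 stood at -0.97 ± 0.16 at day 2, so the clones disagree in sign there, and over the 16 tumors they were unrelated (Pearson r = -0.03, as a description). At day 14 the second GGH clone was -0.09 and -0.77, a mean of -0.43 ± 0.48. It was not called, and its day 14 tumors were not below all earlier ones. The level of GGH at day 2 and the size of its fall at day 14 are therefore uncertain. Of the other named nucleotide genes, 4 of 5 were called lower at day 14 (TYMS, TK1, RRM2 and HPRT1, from -0.81 to -0.61), and CTPS (-0.32 ± 0.19) was not.

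SLC1A4, a neutral amino acid transporter, and AZIN1, which keeps ornithine decarboxylase active and so polyamine synthesis running, ended at -0.91 ± 0.17 and -0.69 ± 0.26. Both had one tumor that stood far above the others of its day, day 4 replicate 2, with 1.10 in SLC1A4 and 0.79 in AZIN1. Its forward and dye-swap arrays gave 2.06 and 0.13 in SLC1A4 and 1.38 and 0.19 in AZIN1. The height in that tumor thus came mostly from 1 array. Without that tumor the pooled SD fell from 0.355 to 0.219 in SLC1A4 and from 0.288 to 0.176 in AZIN1.

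In growth signalling, SHOC2, a scaffold of RAS-RAF signalling (chr10:110919370-111013665), was 0.62, 0.39, 0.06 and -0.13 at day 1, -0.70 and 0.20 at day 2, -0.20, 0.82, -0.43 and -0.09 at day 4, and -0.42, -0.16, 0.38 and 0.25 at day 7. At day 14 it was -1.06 and -0.98, a mean of -1.02 ± 0.06 or 2.03-fold lower, below all 14 earlier tumors. PTP4A1, the prenylated phosphatase PRL-1, changed less, with -0.41 ± 0.07 at day 2 and -0.59 ± 0.15 at day 14, and its day 14 tumors overlapped with day 7 replicate 2.

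The adhesion, matrix and guidance genes were led by CTNNB1, beta-catenin, which links cadherins to the cytoskeleton and carries the Wnt signal (chr3:41199505-41240443). It was -1.05, -0.45, -0.65 and -0.16 at day 1, 0.22 and -0.51 at day 2, 0.00, 1.21, -0.32 and -0.03 at day 4, and -0.15, -1.08, -0.42 and -0.58 at day 7. At day 14 it was -0.82 and -1.17, a mean of -0.997 ± 0.243. Single tumors of days 1 and 7 were as low as those of day 14, and day 4 replicate 2 was the highest of all 16 tumors. MPP2, a membrane guanylate kinase scaffold, was above the pool in all 4 tumors of day 1 (0.18 ± 0.11) and ended at -0.79 ± 0.07. Its forward arrays of day 1 ran from 0.22 to 1.03, while the dye-swap arrays gave -0.41, -0.44, 0.04 and -0.16. The second MPP2 clone was below the pool in day 1 replicate 4 (-0.09). SEMA3B, a secreted semaphorin, ran from 0.64 to -0.36 within day 1 and ended at -0.74 ± 0.20.

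EMP2, an epithelial tetraspan protein, ended at -0.76 ± 0.11, CELSR1, a cadherin of planar cell polarity, at -0.73 ± 0.32, and FN1, fibronectin, at -0.61 ± 0.22. FN1 is also made by fibroblasts. Of the 4 other named fibroblast and matrix genes, MGP (-1.15 ± 0.54) and LGALS1 (-0.67 ± 0.37) were called lower at day 14, MYLK (0.76 ± 0.03) higher, and IGFBP7 (0.73 ± 0.49) was not called. The mean of the 5 genes ran from -0.42 to 0.04 over the day 14 tumors and from -0.41 to 0.23 over all earlier ones. Of the markers of endothelium, of macrophages and leukocytes, and of adipocytes, 0 were among the named features, so the share of host cells in the tumors was not tested. Of 14 luminal epithelium markers 3 were among the named features and ESR1, the estrogen receptor gene, was not. Of these, MUC1 (1.02 ± 0.06) and ERBB3 (0.69 ± 0.01) were called higher at day 14 and CLDN4 (0.49 ± 0.22) was not.

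The nuclear genes were CSE1L, which returns importin alpha to the cytoplasm, and TMPO, lamina-associated polypeptide 2. CSE1L was below the pool in all 16 tumors and ended at -0.82 ± 0.20, and its day 14 values overlapped with day 7 replicate 1 (-0.74). Its second clone was above the pool in day 4 replicate 2 (0.67) and day 7 replicate 4 (0.03). TMPO (chr12:98515573-98550351) was -0.26, 0.01, -0.13 and 0.05 at day 1, -0.40 and -0.33 at day 2, 0.08, 1.07, 0.06 and -0.02 at day 4, and -0.13, -0.28, 0.03 and -0.04 at day 7. At day 14 it was -0.63 and -0.52, a mean of -0.58 ± 0.08. The first of those comes from 1 orientation, because the dye-swap spot carried the mark 0. With such spots kept, the mean was -1.49, so that TMPO would no longer be among the genes with the smallest fall. A second TMPO clone stood at -0.62 ± 0.14.

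**Figure D3:**
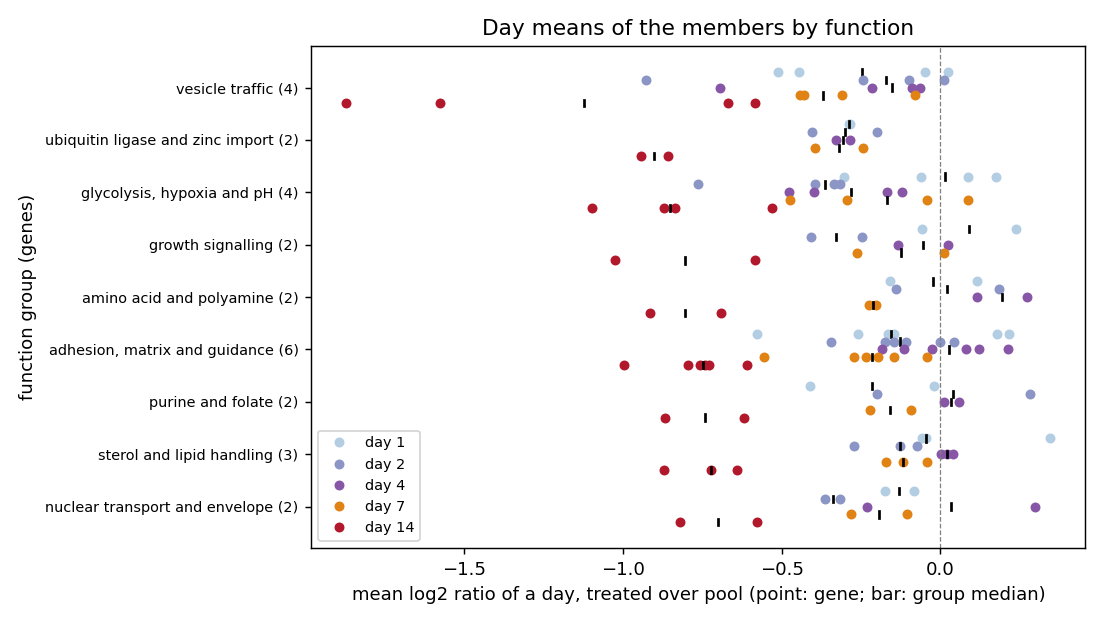
Mean log2 ratio over the pool (horizontal axis) of 27 of the 28 genes (points) in each function group (rows, number of genes in parentheses) by day (color), with group medians as bars. The day 14 points of every group lie to the left of 0, with group medians from -1.12 (vesicle traffic) to -0.70 (nuclear transport and envelope).

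By group, the day 14 medians were -1.12 for vesicle traffic, -0.90 for ubiquitin ligase and zinc import, -0.85 for glycolysis, hypoxia and pH, and -0.80 each for growth signalling and for amino acids and polyamines. They were -0.75 for adhesion, matrix and guidance, -0.74 for purine and folate, -0.72 for sterols and lipids and -0.70 for the nuclear genes. The groups hold 2 to 6 genes each and their ranges overlap, so no order among them is drawn.

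The sets differed in which tumors stood out, as a description of genes that were grouped on these tumors. The representing features of 16 genes lie in set 3 and of 12 in set 4. Day 4 replicate 2 had the highest value of its day in 12 of the 28 genes, all of set 3 and among them AZIN1, CTNNB1, DHCR7, EMP2, GGH, PAICS, SCARB1, SHOC2, SLC1A4, TMPO and TSPO, and the lowest in 4 genes (AMPH, RAB31, SIAH2 and SYT1), all of set 4. The median of the set 3 genes in that tumor was 0.43 and that of the set 4 genes was -0.50. In several set 3 genes the height came mostly from its forward array. Forward and dye-swap values were 2.02 and 0.40 in CTNNB1, 1.45 and 0.18 in SHOC2, and 1.44 and -0.18 in EMP2. The arrays were closer in PAICS (0.36 and 0.25) and SCARB1 (0.47 and 0.25), and in RAB31 of set 4 (-1.86 and -1.50). Over all features this tumor was highest of its day in 25.7% and lowest in 29.2%.

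At day 1, replicate 4 had the lowest value in 18 genes and replicate 1 the highest in 14, where over all features replicate 4 was lowest in 26.3% and replicate 1 highest in 28%. The median of the set 4 genes was 0.21 in replicate 1 and -0.57 in replicate 4, and that of the set 3 genes was -0.12 and -0.04. At day 7, replicate 2 was lowest in 14 genes and in 23.3% of all features, with medians of -0.32 for set 3 and -0.37 for set 4. At day 14 the tumors had a median over all 28 genes of -0.78 each, and set medians between -0.92 and -0.76.

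**Figure D4:**
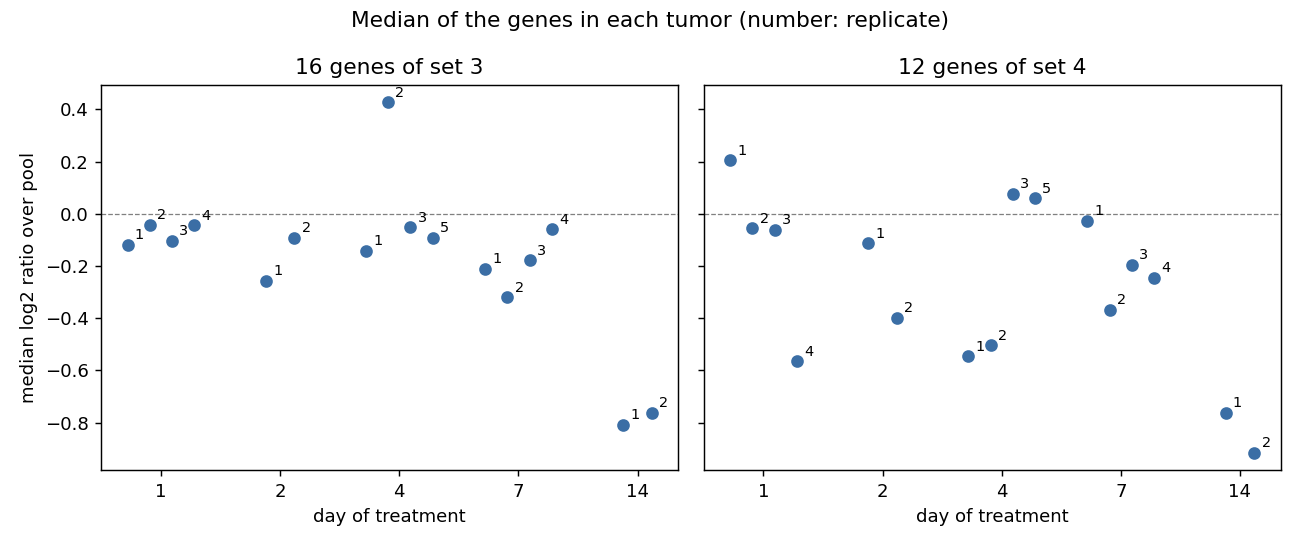
Median log2 ratio over the pool (vertical axis) of the set 3 genes (left) and set 4 genes (right) in each tumor, by day of treatment (horizontal axis), with the replicate number beside each point. Day 4 replicate 2 is at 0.43 on the left and -0.50 on the right, and the tumors of day 14 are the lowest on both sides.

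The spread between tumors of one day was larger than for most features, as a description. Sets 3 and 4 were grouped on these same tumors, and the study describes some variation between replicates in them. A wide spread may thus be built into the choice of members, and nothing is read from the counts below. The pooled SD had a median of 0.307 over the 28 genes, from 0.161 (TPD52) to 0.902 (RAB31), against 0.220 over all features. It was above the all-feature median in 22 genes and above the 90th percentile in 11. Day 4 had the widest spread, with a median SD of 0.350 over the 28 genes against 0.232 over all features. On day 1 these medians were 0.208 and 0.177, and on day 7 they were 0.245 and 0.175. Day 2 gave 0.102 against 0.163, and day 14 gave 0.128 against 0.118. The tumors of days 2 and 14 are 2 each, which limits those values. By published set, the median SD was 0.288 for set 3 and 0.374 for set 4, and for the other 4 sets it ran from 0.201 to 0.266.

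The arrays also give the error of the measurement, from the orientations of the same tumor. The technical SD, taken over 15 tumors as the SD of the difference between orientations divided by 2, had a median of 0.171 in the 28 genes and 0.189 over all features. The SD between tumors was larger than the technical SD in 27 of the 28 genes, with MPP2 as the exception (0.195 against 0.207), and in 69.0% of all features. The choice of members on these tumors may favor this as well, so nothing is read from that count. The ratio was highest in AMPH, at 4.81, and RAB31, at 4.59. In CTNNB1 and SHOC2 the technical SD was itself large (0.302 and 0.276), so that their spread of 0.486 and 0.431 is 1.61 and 1.56 times that error. The members were also bright, with a median log2 intensity of 10.4 against 8.49 over all features, and 26 of the 28 were above the latter.

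**Figure D5:**
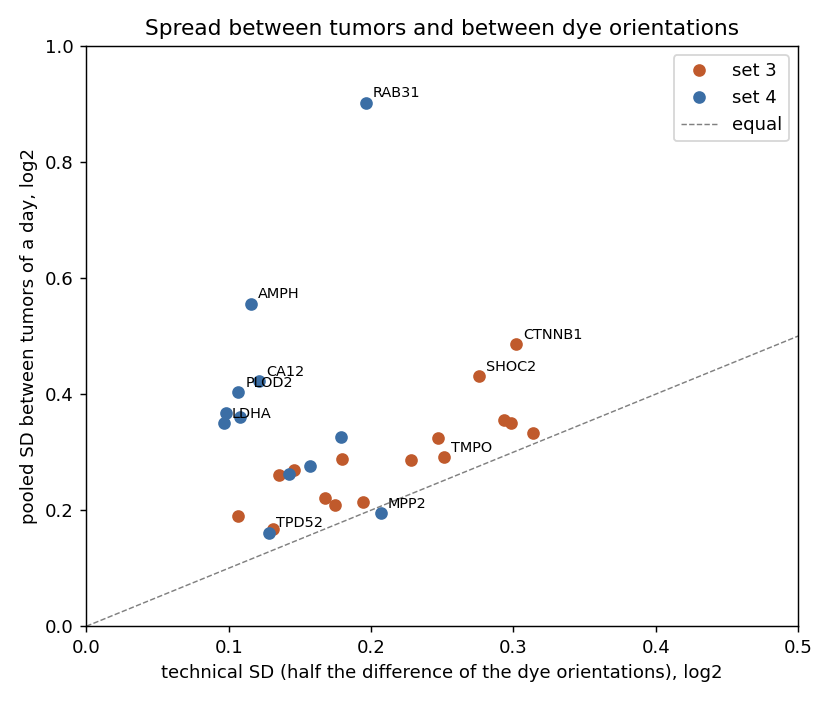
Pooled SD between tumors of a day (vertical axis) against the technical SD from the dye orientations (horizontal axis), both in log2 units, for the 28 genes (orange: set 3, blue: set 4); the dashed line marks equality. All genes but MPP2 lie above the line, and RAB31 and AMPH lie farthest above it.

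Within a gene the orientations were offset by a dye effect of up to 0.43 (SLC1A4), given as their mean difference divided by 2. Day 4 replicate 3 has 1 orientation and carries that offset in full, so its values in SLC1A4, CTNNB1 (0.40) and MPP2 (0.39) are less certain than the rest. Within a tumor, the 28 log ratios of the orientations correlated with a median r of 0.16 (from -0.17 to 0.78 over 15 tumors), across genes that share an array.

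Tumors were also compared by mouse. The pairs come from days 1, 4 and 7. Over the 4 same-mouse pairs the median absolute difference in the 28 genes had a median of 0.21, and over the 14 pairs of different mice on the same day it was 0.32, while over all features it was 0.19 and 0.20. In 24 of the 28 genes the difference was larger between mice, which held for 51.0% of all features. The widest same-mouse pair was day 4 replicates 1 and 2, at 0.39, with 1.28 for the gene that differed most. Same-mouse pairs are few, and no test was run on them. The 28 genes were grouped on these same tumors and share high and low tumors, so they are not separate observations. Nothing is read from the count of 24.

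The brightest and second clones of the 7 genes with more than 1 member clone had a Pearson r between 0.69 (CSE1L) and 0.96 over the 16 tumors. The clones of AMPH had the r of 0.96 and those of RAB31 one of 0.93, as descriptions of values from the same arrays. Both clones of these genes were placed in sets 3 or 4 on the same tumors, which favors a high r. For clones placed in other sets, r with the brightest clone ran from -0.03 (GGH) to 0.96 (SIAH2). It was 0.60 in DHCR7, 0.61 in FN1 and 0.62 in PPP1R3C. In SLC39A6 the brightest clone itself lies in set 5 and is not the clone reported here. The reported member clone had an r of 0.73 with it, and the other set 5 clone had 0.48. The second RAB31 clone stood at -1.79 ± 0.15 at day 14 and ran to -3.06 in day 4 replicate 2. All clones of member genes, members or not, had negative means at day 14, from -1.87 to -0.43. The call at day 14 depended on the clone in some genes. RAB31, SIAH2, FN1 and GGH were called lower in the clone that stands for the gene. The second member clone of RAB31 and the other clones of SIAH2, FN1 and GGH were not called.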

How the data were processed

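RNA of 16 tumors from 12 mice was measured on 32 cDNA arrays of 2 colors. The intensity values, which the authors deposited as scanned, are spot brightness and local background per channel without correction. The log2 values in the table the authors deposited are ratios of tumor and pool made with limma by background correction, loess and quantile normalization, and served as an alternative only. The members, their function groups and the gene lists were chosen with earlier results of these data known.

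The scanner values were processed with limma 3.58.1 and statmod 1.5.0 (R 4.3.3). Marked spots (mark 0: 1 to 393 on an array, 10 of the 1120 spots of member features, the meaning not stated in the sources used here) were left out. Background was corrected with normexp (offset 50), followed by loess within and quantile normalization between arrays. The sign of dye-swap arrays was turned, and the orientations of a tumor were averaged. The array labelled day 4 replicate 4 dyeswap was left out, since its ratios followed the forward array of day 4 replicate 2 (r = 0.978 before and 0.880 after normalization, read without the turn). A mean per day was fitted with the mouse as a random block (correlation 0.0224) and eBayes, with Benjamini-Hochberg adjustment over 9912 features and calls at an adjusted p under 0.05. The single control pool's own spread is not part of these tests, and the number of arrays limits the precision.

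Replicate numbers did not pair tumors: over 24 pairs with the same number, the correlation of deviations from the day means ran from -0.52 to 0.43. Gene names came from the published list (333 features), and 9579 features without a name there were used in the fit only. The counts cover all 28 genes, of which 27 are named and 1 is not reported here, with values in every tumor for the 5 largest spreads, the 5 lowest and the 3 highest day 14 means. Other single values were chosen after they were seen. Alternatives covered background, normalization, spot marks, dim features, blocks, dye term, samples, the deposited table and each tumor left out. All 9912 features passed the filter on dim features, so that alternative only repeats the main fit. Aquantile gave the same counts and medians as no normalization between arrays, so they stand for a single alternative. Median signal over background per array ran from 2.77 to 7.92.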

Additional observations from a re-analysis of the deposited data

Results flagged for a closer look

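In groups of 4 tumors, 87 were examined for a tumor far from the others of its day, and 2 were found, where chance gives about 1 in 20 groups. PLOD2 stood at -0.35 in day 7 replicate 2, while the other 3 tumors of that day lay between 0.04 and 0.07. The second PLOD2 clone stood at -0.03, -0.18, -0.25 and -0.25 in the 4 tumors of that day, so replicate 2 did not stand apart in it. TMPO stood at 1.07 in day 4 replicate 2, with 1.67 and 0.48 in the separate orientations, while the other 3 tumors lay between -0.02 and 0.08. The second TMPO clone was 0.89 in the same tumor.

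A difference between day 14 and the mean of the earlier days passed the limma threshold in 2 genes, MPP2 (-0.83) and SCARB1 (-0.92). The log ratios of all 5 days chose the genes, so neither is independent of the choice of genes.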

How the results depend on the processing

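The fall at day 14 kept its sign in all 343 values of single genes, and the day 14 median kept its sign under every alternative run. Counts and spreads were compared by their ratio, which cannot turn direction. The median log2 ratio at day 14 was -0.69 with plain background subtraction and -0.60 without background correction, in place of -0.81, and from -0.81 to -0.78 with 1 tumor left out. The count of genes called at day 14 was 25, was 18 with the left-out array used as labelled and 24 with the replicate block (replicate number in place of the mouse), and ran from 0 to 26 with 1 tumor left out, the lowest values coming from either tumor of that day. Against the mean of the earlier days the count of 2 became 1 (SCARB1) with Aquantile or without normalization between arrays, 4 with the deposited value table, 12 with single arrays and a dye term, 23 with adjustment over the published features, and 0 to 4 with 1 tumor left out. At day 1 the count of 0 became 1 (SCARB1, higher) with plain subtraction, no background correction, Aquantile or no normalization between arrays, 2 with the deposited table, with and without its column for day 7 replicate 4 (forward), which does not follow its scanner file and whose removal was chosen after seeing the data, 2 with the dye term, 3 with the tumors of that day alone or with adjustment over the published features, and 0 to 2 with 1 tumor left out (2 without day 4 replicate 2, CTNNB1 and SCARB1). At day 2 it became 2 (PPP1R3C and PTP4A1) with the dye term or the published features and 0 to 1 with 1 tumor left out, at day 4 1 (PPP1R3C) with the published features and 0 to 1, and at day 7 7 with the published features, 1 (SYT1) with the dye term and 0 in all of the 16 fits with 1 tumor left out. The cause of these shifts was not tested, other than that the published features are fewer and were chosen for change. The median spread of 0.307 ran from 0.261 to 0.322 with 1 tumor left out. For single genes, 6 of 343 day 14 values moved by more than the gene's own spread (CA12 between -1.61 and -0.59 with a day 14 tumor left out, MPP2 to -0.51, PPP1R3C to -0.47 and SYT1 to -0.39 without background correction, TMPO to -1.49 with marked spots kept), and 7 of 343 spreads moved by over 1.5 times, among them TMPO, which fell from 0.291 to 0.114 without day 4 replicate 2. Days with 2 tumors and 1 shared pool limit every value.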

Other observations

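The array that was left out of day 4, read as a forward array, followed the forward array of day 4 replicate 2 in the members as well, with r = 0.989 across 27 genes, which share both arrays and are not independent replicates. Its label names the tumor of day 4 replicate 3.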
